A study of Homo sapiens with 24 samples.

Results

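The collagen genes were the 44 genes of the count table whose symbol was COL, a number, A and a number, out of 60563 named genes. They were measured by RNA sequencing of H1299 cells, a human non-small cell lung cancer line that lacks p53. The control carried the vector only, and 5 further lines each stably overexpressed 1 isoform from a plasmid: Δ133p53α in the lines Δ133p53α1, Δ133p53α2 and Δ133p53α8, and Δ133p53β in Δ133p53β5 and Δ133p53β10. Each overexpressing line is 1 clone, so a difference between a line and the control cannot be told apart from a difference between clones of H1299. A difference between the isoforms sets 2 clones against 3 and likewise cannot be told apart from one between clones. The libraries of a line give the spread within that clone. Both isoforms lack the start of p53 and part of its DNA-binding domain, and they differ in their C-terminal end. The control, the 3 Δ133p53α lines and Δ133p53β10 had 4 libraries each and Δ133p53β5 had 3. A further Δ133p53β library, whose clone is given as Δ133p53β10 by its label and as Δ133p53β5 by the count table, was left out of the tests and is described on its own. Nothing in the labels states that the libraries of a line came from separate cultures, so the p-values measure the spread between these libraries, which may be technical.

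Collagens are secreted or membrane-bound proteins built of 3 chains wound into a triple helix. Fibrillar collagens form the cross-striated fibers of connective tissue, type IV chains form the sheet of the basement membrane under epithelia, type VI forms beaded filaments at cell surfaces, and the transmembrane collagens stay anchored in the cell membrane and shed their outer part. Chains of a type are often made in fixed combinations, so that a chain whose partner is missing is generally retained in the cell. Tumor cells of epithelial origin can make basement membrane and membrane-bound collagens themselves, whereas most fibrillar collagen in a tumor is made by fibroblasts.

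In the clones, COL16A1, COL4A6 and COL13A1 stood apart from the vector control in the same way in each of the 5 lines. COL16A1, a fibril-associated collagen found near epithelial basement membranes, was 3.60 to 5.13-fold higher, and COL4A6, the α6 chain of type IV collagen, was 4.16 to 16.1-fold higher. The COL4A6 fold is less firm, since its control libraries held only 2 to 6 reads each. COL4A6 also passed the count filter through the clone libraries, where it was high. COL13A1, a transmembrane collagen of cell adhesions, was 8.15 to 23.9-fold lower. COL4A5, the gene that shares its promoter region with COL4A6, was at 2.92 to 5.12 times the control level and passed the test in 2 of the 5 lines. COL6A1, a chain of type VI collagen and an abundant collagen mRNA here, was 3.50-fold lower in Δ133p53β5. The lines share the same 4 control libraries, so their changes are not independent of each other.

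The regions upstream of COL4A5, COL4A6 and COL13A1 are shown because COL4A5 and COL4A6 start back to back and both were higher in clones, and because COL13A1 had the largest change among the tested collagens for both isoform means. COL4A5 and COL4A6 lie on the X chromosome on opposite strands, and their RefSeq starts at positions 108439838 and 108439458 are 380 bases apart. A second start of COL4A6 lies at position 108438422, which is 1416 bases from that of COL4A5. Reads were counted per gene, so the starts of COL4A6 were not told apart. The runs below belong to the RefSeq starts of COL4A5 and COL13A1 and to the COL4A6 start at 108439458. The run of the second COL4A6 start is not printed. Each run is the part of the 250 bases upstream of the start (GRCh38.p14) that overlaps no exon in GENCODE. It is read 5′ to 3′ on the gene's own strand. Capitals mark CCAAT or its reverse complement ATTGG, the core of SOX binding sites (ACAAT or its reverse complement ATTGT) and the letters of the TATA box (TATAAA), wherever they lie. The COL4A5 and COL4A6 runs overlap, so that the CCAAT pair at the start of the COL4A5 run is the same pair, read on the other strand, as in the COL4A6 run.
COL4A5, chrX:108439588-108439837, plus strand: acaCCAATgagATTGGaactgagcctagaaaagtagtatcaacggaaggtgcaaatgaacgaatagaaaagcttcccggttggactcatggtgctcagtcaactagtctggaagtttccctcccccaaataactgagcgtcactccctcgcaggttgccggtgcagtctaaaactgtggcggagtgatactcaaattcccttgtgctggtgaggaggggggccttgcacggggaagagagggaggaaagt
COL4A6, chrX:108439498-108439708, minus strand: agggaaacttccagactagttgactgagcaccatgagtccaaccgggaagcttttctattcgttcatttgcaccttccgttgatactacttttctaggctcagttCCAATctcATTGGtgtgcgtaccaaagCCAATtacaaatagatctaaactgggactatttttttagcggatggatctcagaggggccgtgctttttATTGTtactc
COL13A1, chr10:69801656-69801879, plus strand: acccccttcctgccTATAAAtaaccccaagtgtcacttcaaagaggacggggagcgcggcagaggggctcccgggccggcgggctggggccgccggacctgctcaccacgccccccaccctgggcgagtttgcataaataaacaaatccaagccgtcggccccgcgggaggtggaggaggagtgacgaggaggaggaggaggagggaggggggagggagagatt

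The COL4A5 run held CCAAT 2 times and the printed COL4A6 run 3 times, counting both strands, and this COL4A6 run also held ACAAT 1 time. The 250 bases upstream of the second COL4A6 start held GGGCGG 1 time and CCAAT and ACAAT 0 times. The promoter table held 44 promoters of 32 collagen genes, with up to 4 for 1 gene and none for COL6A1, COL1A1, COL5A2 or COL9A3. Of 35114 promoters of all genes in the 250 bases upstream, 32.0% held CCAAT, against 12 of these 44. ACAAT was in 24.6% of all promoters and in 4 of the collagen promoters. TATAAA was in 10.7% of all promoters and in 8 of the collagen promoters. In the COL13A1 run it lies near the end farthest from the start, and it is not shown to be a working TATA box. GGGCGG, the GC box bound by Sp1, was in 42.6% of all promoters and in 24 of the collagen promoters, 2 times upstream of COL16A1. The p53 half-site was in 5.57% of all promoters and in 1 collagen promoter, that of COL17A1. These matches describe letters in a window and not binding.

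Levels are given as CPM, the read count scaled to the same library total with a TMM normalization factor, and a test was run for genes that passed edgeR's count filter. Of the 44 collagen genes, 42 had at least 1 read and 18 were tested. Levels of different genes were compared per kilobase of exon. COL6A2 was the highest at a mean of 17.5 CPM per kilobase over the 24 libraries. It was followed by COL6A1 with 8.00 CPM per kilobase, COL18A1, whose C-terminal fragment is endostatin, with 6.85, COL12A1, a fibril-associated collagen, with 2.23, COL27A1, a fibrillar collagen of cartilage, with 1.71, and COL17A1, the hemidesmosome collagen, with 1.21. Together COL6A2, COL6A1, COL18A1, COL12A1 and COL27A1 held 86.6% to 92.9% of the collagen reads of a library. The summed level of all 44 genes was 330 ± 77.2 CPM in the control (SD, n = 4) and ranged over all libraries from 201 to 520 CPM, with control values of 264 to 421 CPM inside that range.

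Chains of the same type were present unequally. COL6A1 and COL6A2 had at least 318 reads in every library, whereas COL6A3, the third chain of the classical type VI molecule, had at most 2 reads and COL6A5 had 0 in all 24. COL1A1 had 7 to 41 reads per library and its partner chain COL1A2 at most 1. COL5A2 had 14 to 83 reads and COL5A1 at most 1. COL4A2 had 1 to 29 reads and COL4A1, its partner in most basement membranes, at most 3. Of 26 untested genes, 19 had at most 3 reads in any library, 5 had at most 4 to 7, COL25A1 had at most 11 and COL26A1 at most 16. With 3 reads as the limit that a count of 0 allows, absence of COL6A5 and COL22A1 means fewer than about 3 reads among the 21531599 to 25381731 counted per library, and this limit covers counting error only.

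**Figure D1:**
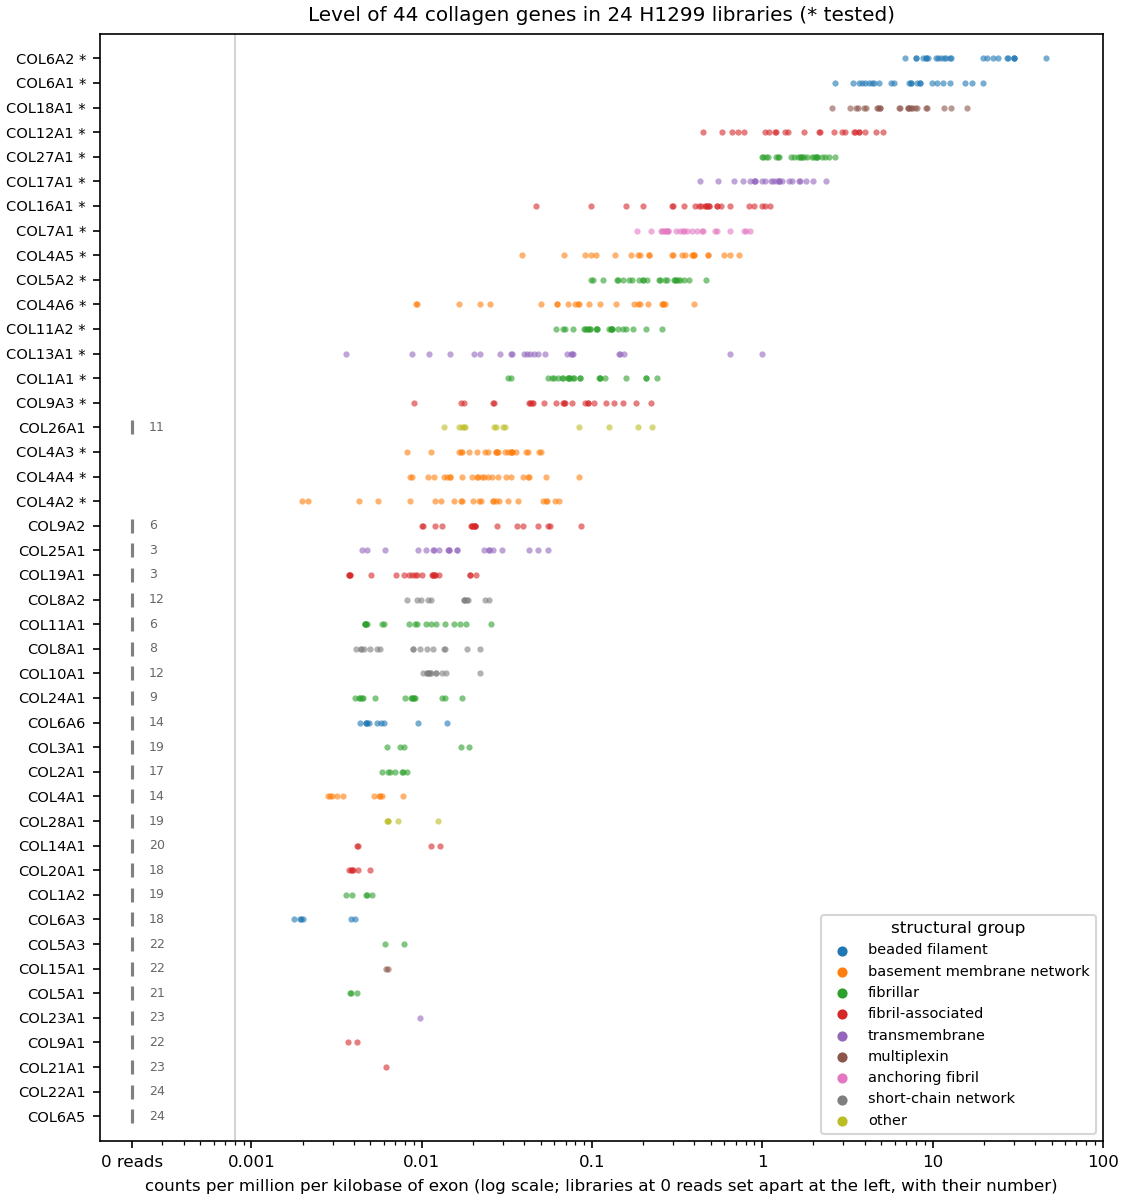
Level of each of the 44 collagen genes in each of the 24 libraries, in CPM per kilobase of exon on a log axis, colored by structural group, with libraries at 0 reads set apart at the left and counted. COL6A2, COL6A1 and COL18A1 are at the top, and COL13A1 has 2 points, both control libraries, set apart to the right.

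The fibroblast markers DCN, LUM, PDGFRA, PDGFRB, THY1 and FAP summed to 0.620 to 2.22 CPM in the control and 0.204 to 0.976 CPM in the clones, and LUM, THY1 and FAP had at most 3 reads in any library. Endothelial markers (PECAM1, CDH5, VWF and KDR) summed to 0.194 to 0.460 CPM in the control and 0.304 to 2.06 CPM in the clones. The lung epithelium markers NKX2-1, SFTPC, SFTPB and NAPSA summed to at most 0.764 CPM. Epithelial markers (EPCAM, CDH1, KRT8, KRT18, KRT19 and KRT7) summed to 895 to 1670 CPM in the control and 1870 to 7530 CPM in the clones, with CDH1 at 3 reads or fewer, and mesenchymal markers (VIM, CDH2, ZEB1 and FN1) to 2850 to 5050 and 1830 to 5100 CPM. Nearly all of the epithelial sum was KRT8 and KRT18. EPCAM, KRT19 and KRT7 read at most 0.194, 0.223 and 8.36 CPM in any library, and mean EPCAM was lower in both isoforms than in the control. The part of these markers in the collagen values was not tested. In bulk samples of a cell line, fewer cells that express a gene and less of its RNA per cell cannot be told apart. In 12 libraries long genes read high and in the other 12 low (Spearman's rho between gene length and a gene's deviation from its mean, 0.173 to 0.297 and -0.269 to -0.125). Each of the 6 groups had libraries of both sets, with 3 and 1 in the control. The sets were not balanced over the groups. Long genes read high in most libraries of Δ133p53α2 and Δ133p53α8, as in the control. They read low in most libraries of Δ133p53α1, Δ133p53β5 and Δ133p53β10, so line and library set are partly confounded.

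A gene was called at a Benjamini-Hochberg adjusted p under 0.05 in edgeR's quasi-likelihood test with a change of 1.5 or more on the log2 scale, in either direction. Of the 18 tested collagen genes, 2 were called higher and 1 lower in Δ133p53α1, against 2.58% of all 18295 tested genes called in that comparison. In Δ133p53α2, 2 were higher and 1 lower, with 2.81% of all genes called, and in Δ133p53α8, 3 were higher and 1 lower, with 2.53% called. In Δ133p53β5, 2 were higher and 2 lower, with 4.27% called, and in Δ133p53β10, 3 were higher and 1 lower, with 4.73% called. For the mean of the Δ133p53α lines and for the mean of the Δ133p53β lines, 3 were higher and 1 lower, with 2.81% and 5.36% of all genes called. The median log2 change of the 18 genes ran from -0.09 (Δ133p53α1) to 0.38 (Δ133p53α8) over the lines, and that of all tested genes from -0.08 to 0.01. The median size of the change, without its sign, was 0.53 for the 18 genes and 0.30 for all tested genes in the mean Δ133p53α line, and 0.63 and 0.42 in the mean Δ133p53β line.

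**Figure D2:**
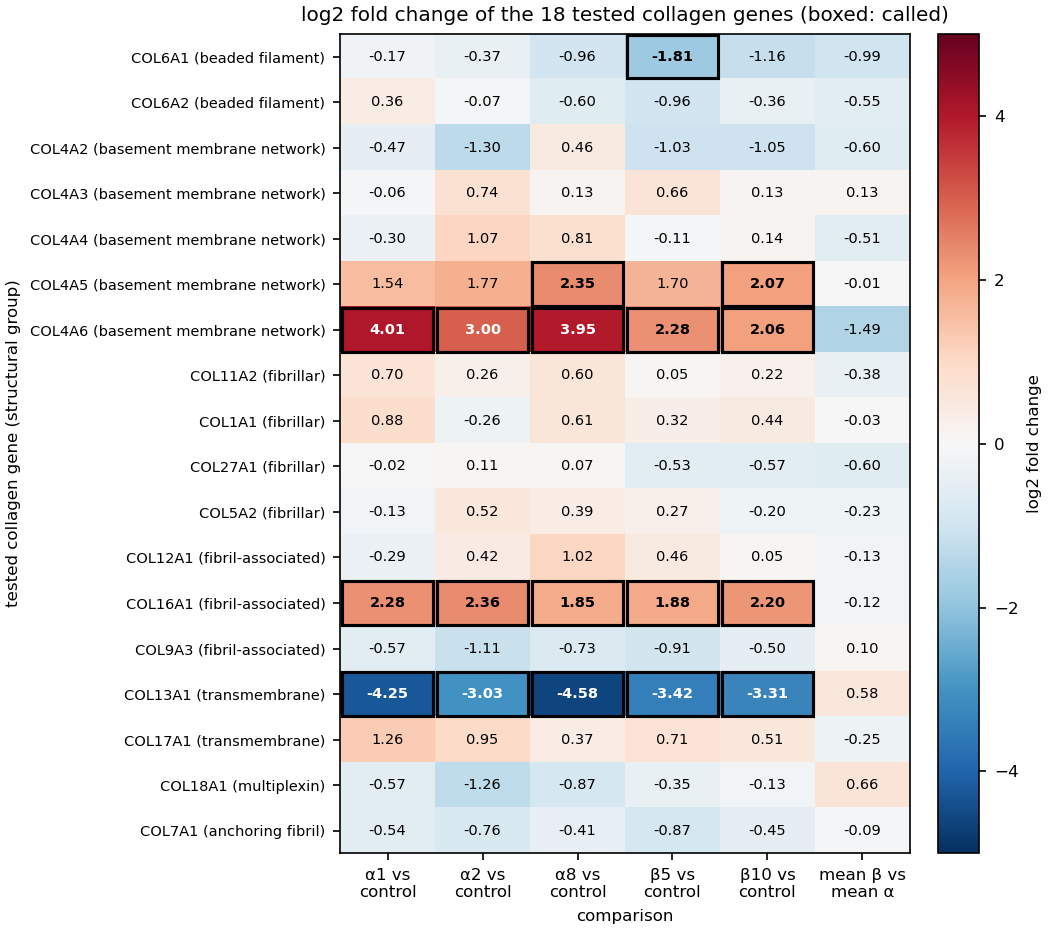
log2 fold change of the 18 tested collagen genes in the 5 comparisons of a line with the control and in the comparison of the mean Δ133p53β with the mean Δ133p53α line; boxes mark called genes. COL4A6, COL16A1 and COL13A1 are boxed in each of the 5 lines, and no gene is boxed in the last column.

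COL13A1 (ENSG00000197467, chromosome 10, 69801880 to 69964275) is a transmembrane collagen concentrated at cell-matrix adhesions and at the neuromuscular junction. The 4 control libraries read 11.4, 1.78, 7.40 and 1.69 CPM, from 295, 41, 193 and 39 reads. The Δ133p53α1 libraries read 0.254, 0.101, 0.330 and 0.479 CPM, those of Δ133p53α2 0.891, 0.524, 0.826 and 0.495 CPM, and those of Δ133p53α8 0.388, 0.233, 0.127 and 0.168 CPM. All 12 Δ133p53α libraries were below the lowest control library. The Δ133p53β5 libraries read 0.386, 0.556 and 0.606 CPM and those of Δ133p53β10 0.874, 0.865, 0.458 and 0.0416 CPM. The 7 Δ133p53β libraries were likewise below the lowest control, while the control libraries themselves spread from 1.69 to 11.4 CPM.

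COL13A1 fell in each line (edgeR). By line, the log2 changes were -4.58 ± 0.70 (SE, Δ133p53α8, adjusted p = 0.000304), -4.25 ± 0.69 (Δ133p53α1, adjusted p = 0.000658), -3.42 ± 0.73 (Δ133p53β5, adjusted p = 0.00472), -3.31 ± 0.64 (Δ133p53β10, adjusted p = 0.00190) and -3.03 ± 0.63 (Δ133p53α2, adjusted p = 0.00485). The call held in the 5 lines under each of the 11 other settings and without any 1 library. Within the set of libraries in which long genes read high, the 3 control libraries read 1.69 to 7.40 CPM, the 7 Δ133p53α libraries 0.127 to 0.826 CPM and the 2 Δ133p53β libraries 0.386 and 0.874 CPM. In the other set, the single control library read 11.4 CPM and the 10 clone libraries at most 0.891 CPM. COL17A1, the other tested transmembrane collagen, did not pass the threshold in any line. Its control libraries read 3.03 to 6.98 CPM and the Δ133p53α1 libraries 10.1 to 16.5 CPM, a log2 fold change of 1.26 ± 0.31 (edgeR, adjusted p = 0.0185).

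COL16A1 (ENSG00000084636, chromosome 1, 31652263 to 31704319) belongs to the fibril-associated collagens with interrupted triple helices. The control libraries read 1.47, 0.435, 1.84 and 0.908 CPM, from 38, 10, 48 and 21 reads. The Δ133p53α1 libraries read 3.21, 5.01, 5.05 and 9.59 CPM, those of Δ133p53α2 6.01, 5.33, 4.50 and 8.25 CPM, and those of Δ133p53α8 3.71, 7.70, 2.76 and 2.73 CPM. Each of them was above the highest control library. The Δ133p53β5 libraries read 4.25, 4.35 and 4.38 CPM and those of Δ133p53β10 4.04, 4.51, 9.16 and 3.91 CPM. The Δ133p53β libraries were also all above the control and overlapped the Δ133p53α libraries.

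COL16A1 rose in each line (edgeR). Its log2 changes were 2.36 ± 0.44 (Δ133p53α2, adjusted p = 0.00167), 2.28 ± 0.44 (Δ133p53α1, adjusted p = 0.00292), 2.20 ± 0.44 (Δ133p53β10, adjusted p = 0.00234), 1.88 ± 0.46 (Δ133p53β5, adjusted p = 0.0122) and 1.85 ± 0.44 (Δ133p53α8, adjusted p = 0.0142). Without replicate 2 of Δ133p53α8, the change in that line was 1.39 and was not called (adjusted p = 0.0551). Where long genes read high, the control libraries read 0.435 to 1.84 CPM and the Δ133p53α and Δ133p53β libraries 2.73 to 8.25 CPM and 4.04 to 4.25 CPM. In the other set, the control library read 1.47 CPM and the clones 3.91 to 9.59 CPM. COL16A1 shares 117 exonic bases with the antisense gene PEF1-AS1, and the strand setting of the counting is not given in the sources used here. The other tested fibril-associated collagens, COL12A1 and COL9A3, were not called, with log2 fold changes of -0.29 to 1.02 and -1.11 to -0.50 in the 5 lines.

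COL4A6 (ENSG00000197565, X chromosome, 108155607 to 108439497) encodes the α6 chain of type IV collagen, which assembles with the α5 chain in the basement membranes of skin, smooth muscle and some glands. The control libraries read 0.233, 0.0870, 0.153 and 0.0865 CPM, from 6, 2, 4 and 2 reads. The Δ133p53α1 libraries read 3.68, 1.72, 1.65 and 2.40 CPM, those of Δ133p53α2 0.668, 0.742, 1.28 and 1.98 CPM, and those of Δ133p53α8 1.77, 2.42, 2.42 and 2.48 CPM. The 12 libraries were above the highest control library. The Δ133p53β5 libraries read 0.772, 0.463 and 0.886 CPM and those of Δ133p53β10 1.04, 0.576, 0.204 and 0.582 CPM. Replicate 3 of Δ133p53β10, with 4 reads, was the only clone library within the control range.

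COL4A6 also rose in each line (edgeR). Its log2 changes were 4.01 ± 0.49 (Δ133p53α1, adjusted p = 2.26e-05), 3.95 ± 0.49 (Δ133p53α8, adjusted p = 2.46e-05), 3.00 ± 0.49 (Δ133p53α2, adjusted p = 0.000455), 2.28 ± 0.52 (Δ133p53β5, adjusted p = 0.00835) and 2.06 ± 0.50 (Δ133p53β10, adjusted p = 0.0108). These calls held under each other setting and without any 1 library. The control level rests on 14 reads in all, which limits the precision of the fold, and COL4A6 passed the count filter through the clone libraries, where it was high. Between the isoforms, the mean Δ133p53β change was 1.49 ± 0.30 below the mean Δ133p53α change on the log2 scale (edgeR, adjusted p = 0.00387), just short of the fold threshold. The Δ133p53α libraries read a median of 1.87 CPM and the Δ133p53β libraries a median of 0.582 CPM, and the ranges of 0.668 to 3.68 and 0.204 to 1.04 CPM overlapped.

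COL4A5 (ENSG00000188153, X chromosome, 108439838 to 108697545) encodes the α5 chain, which also assembles with α3 and α4 in the kidney, where its loss causes Alport syndrome. The control libraries read 0.465, 1.09, 2.03 and 0.821 CPM, from 12, 25, 53 and 19 reads. The Δ133p53α1 libraries read 7.06, 2.23, 1.26 and 2.29 CPM, those of Δ133p53α2 1.17, 3.54, 4.67 and 5.70 CPM, and those of Δ133p53α8 4.61, 4.71, 5.69 and 7.65 CPM. Only Δ133p53α8 lay wholly above the control among these. The Δ133p53β5 libraries read 4.03, 4.17 and 2.56 CPM and those of Δ133p53β10 8.65, 3.51, 1.63 and 4.74 CPM. In all, 16 of the 19 tested clone libraries were above the highest control library.

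COL4A5 rose in Δ133p53α8 by a log2 fold change of 2.35 ± 0.57 (edgeR, adjusted p = 0.0171) and in Δ133p53β10 by 2.07 ± 0.57 (adjusted p = 0.0236). It was at 1.54 ± 0.56 in Δ133p53α1 (adjusted p = 0.111), 1.77 ± 0.56 in Δ133p53α2 (adjusted p = 0.0765) and 1.70 ± 0.59 in Δ133p53β5 (adjusted p = 0.0880), and these were not called. For the mean of the Δ133p53α lines it was 1.89 ± 0.50 (adjusted p = 0.0226) and for the mean of the Δ133p53β lines 1.88 ± 0.53 (adjusted p = 0.0196). COL4A5 moved with the library set. With the set as a term, the change was called in each of the 5 lines, from 1.73 in Δ133p53α2 to 2.62 in Δ133p53β10. Δ133p53α1, Δ133p53α2 and Δ133p53β5 were each called in 3 of the 11 other settings, this one included. The others were DESeq2 (adjusted p = 0.047, 0.019 and 0.0379) and removal of the length and GC trend (edgeR, adjusted p = 0.0312, 0.0124 and 0.0109). Within either set no clone library overlapped the control: the 3 control libraries where long genes read high had 0.821 to 2.03 CPM and the clones 3.54 to 8.65 CPM, and in the other set the control had 0.465 CPM and the clones 1.17 to 4.74 CPM. The calls of the main fit were lost without single libraries (edgeR). In Δ133p53α8 this was so without its replicate 4 (adjusted p = 0.0504) or control replicate 1 (0.0610), given as adjusted p, and in Δ133p53β10 without control replicate 1 (0.0543), 2 (0.0516) or 4 (0.0581). For the mean of the Δ133p53α lines the same 3 control libraries gave adjusted p values of 0.0792, 0.0635 and 0.0707, and for the mean of the Δ133p53β lines replicates 1 and 4 gave 0.0562 and 0.0538.

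Per kilobase of exon, COL4A5 reads were 6.09 times those of COL4A6 in the control, 1.11 times in Δ133p53α1, 2.56 times in Δ133p53α2, 1.96 times in Δ133p53α8, 3.98 times in Δ133p53β5 and 6.07 times in Δ133p53β10. Single control libraries ranged from 1.56 to 10.4, since COL4A6 had few reads there. The other head-to-head pairs of type IV genes were low. COL4A3 and COL4A4, the α3 and α4 chains, had 2 to 15 and 2 to 24 reads per library and were not called in any comparison, with log2 fold changes of -0.06 to 0.74 and -0.30 to 1.07 in the 5 lines. COL4A2 was at -1.30 to 0.46, not called, and COL4A1 was not tested. COL4A3 shares 838 exonic bases with the antisense gene MFF-DT.

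**Figure D3:**
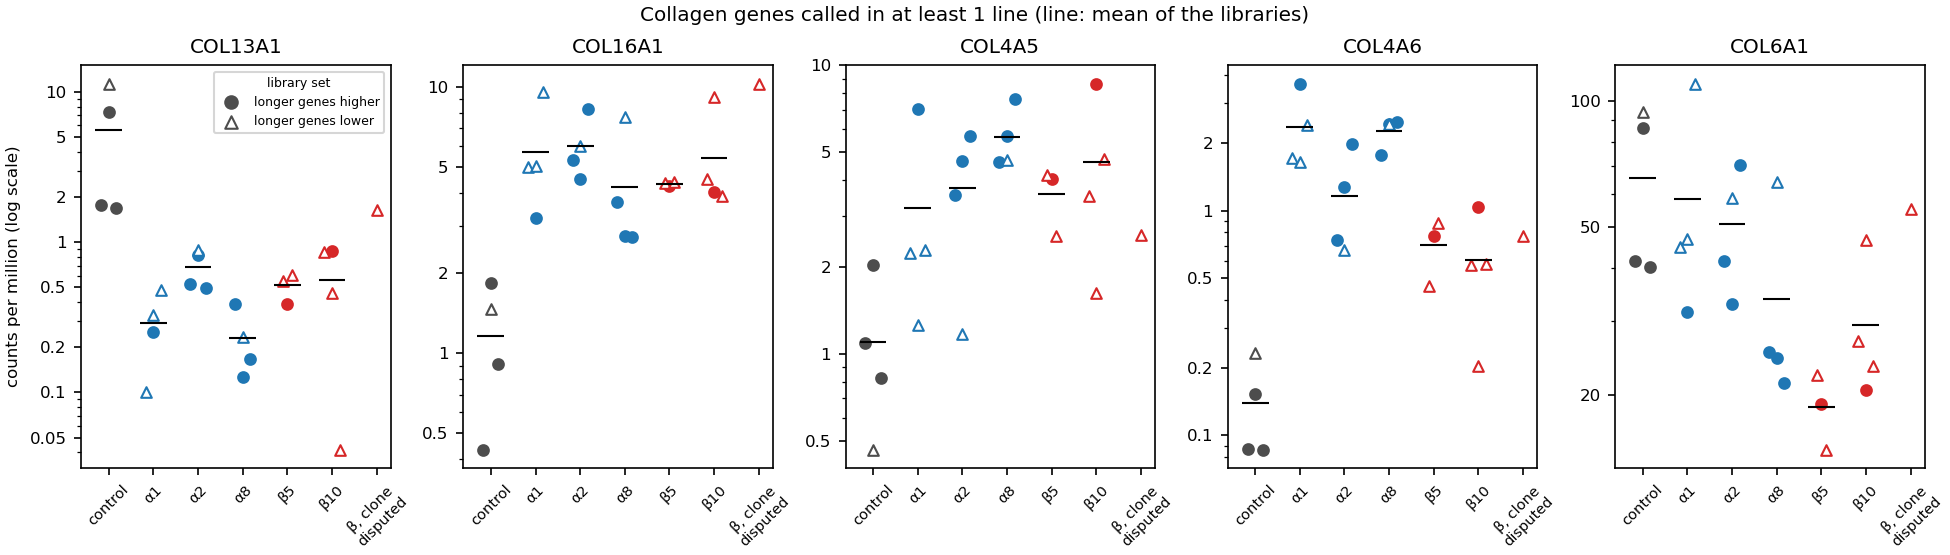
CPM in each library (log axis) of the 5 collagen genes called in at least 1 line, by line, with the mean as a bar; filled circles are libraries in which long genes read high and open triangles those in which they read low, with the library of unclear clone at the right of each panel. COL13A1 is below and COL16A1 above the control in each clone library shown, and the COL4A6 points of the Δ133p53α lines are mostly above those of the Δ133p53β lines.

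COL6A1 and COL6A2 encode chains of type VI collagen, a filament-forming collagen around many cell types. The control libraries read 94.0, 41.6, 86.3 and 40.2 CPM for COL6A1, and those of Δ133p53β5 19.0, 22.3 and 14.8 CPM, all below the control. COL6A1 fell in Δ133p53β5 by a log2 fold change of 1.81 ± 0.48 (edgeR, adjusted p = 0.0203). It was at -1.16 in Δ133p53β10 and between -0.96 and -0.17 in the Δ133p53α lines, and was not called in these. For the mean of the Δ133p53β lines it was at -1.48 (edgeR, adjusted p = 0.0077), just short of the log2 threshold. That mean was called in 2 of the 11 other settings, among them the library set as a term (-1.77, adjusted p = 0.000162). The call in Δ133p53β5 was lost when the library of unclear clone was counted in that line (-1.23, adjusted p = 0.114), when the trend with gene length and GC content was removed (-1.42) and without Δ133p53β5 replicate 1 (adjusted p = 0.0755), 2 (0.0571) or 3 (0.134) or control replicate 3 (0.0686). The library of unclear clone read 55.3 CPM, within the control range and above the other Δ133p53β libraries. COL6A2 was not called in any line, at -0.96 in Δ133p53β5 and 0.36 in Δ133p53α1. Per kilobase, COL6A2 reads were 1.63 times those of COL6A1 in the control (1.49 to 1.78 in single libraries) and 1.95 to 2.93 times in the 5 lines.

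The other abundant collagens changed less. COL18A1, a multiplexin of basement membranes, read 60.7 to 98.9 CPM in the control (median 72.0), 21.8 to 78.2 CPM in the Δ133p53α libraries (median 37.5) and 39.8 to 108 CPM in the Δ133p53β libraries (median 61.6). It was lower in Δ133p53α2 at an adjusted p of 0.0198 (edgeR), with a log2 change of -1.26 ± 0.32, short of the fold threshold. COL18A1 shares 1563 exonic bases with the antisense gene SLC19A1. COL27A1 read 24.1 to 29.2 CPM in the control and at most 23.2 CPM in the 7 Δ133p53β libraries, which lay below the control without passing the test (-0.53 in Δ133p53β5 and -0.57 in Δ133p53β10). The remaining tested fibrillar collagens were at -0.26 to 0.88 (COL1A1), -0.20 to 0.52 (COL5A2) and 0.05 to 0.70 (COL11A2) over the 5 lines. COL7A1, which forms the anchoring fibrils that tie the basement membrane to the dermis, was at -0.87 to -0.41. None of these was called.

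The cartilage collagens COL2A1, COL9A1, COL9A2, COL10A1 and COL11A1 had at most 7 reads in any library, so only COL9A3 and COL11A2 of that group of 7 were tested, and neither was called. SOX9, the transcription factor that drives cartilage collagens in chondrocytes, read 53.9, 29.5, 72.5 and 24.4 CPM in the control and at most 0.208 CPM in each clone library, and was called lower in each of the 5 lines. SOX5 and SOX6, its partners, were not called in any line. COL2A1, a direct target of SOX9 in cartilage, had 1 read in 7 libraries and 0 in the rest, so it was near 0 also in the control, where SOX9 was present.

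COL26A1 was not tested because it had too few reads, and it is named here because its values were seen to separate. It encodes a collagen-like secreted protein. The control libraries had 10, 16, 15 and 6 reads, and the 19 clone libraries at most 2. Summed over libraries and scaled by their size, the control was 9.64 times Δ133p53α1 (95% exact interval 3.52 to 36.8), 14.3 times Δ133p53α2 (4.60 to 71.7), 14.7 times Δ133p53α8 (4.73 to 73.9) and 21.2 times Δ133p53β10 (5.56 to 180). Δ133p53β5 had 0 reads in 3 libraries, at least 3.53-fold lower with 3 reads per library as the limit of a count of 0. The intervals cover counting error only. Without a filter on low counts it was called lower in the 5 lines (edgeR, adjusted p = 0.00456 to 0.0454).

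No collagen gene was called between the mean Δ133p53β and the mean Δ133p53α line (edgeR), with 1.39% of all tested genes called. At an unadjusted p under 0.05 there were 4 of the 18 (22.2%), with 16.5% of all tested genes. DESeq2 also called 0 and limma-voom called 1, COL4A6. Between clones of the same isoform, 0 of the 18 were called by edgeR, DESeq2 or limma-voom in each of the 4 comparisons. At an unadjusted p under 0.05 there were 4 for Δ133p53α2 against Δ133p53α1 (22.2%, with 15.2% of all tested genes), 2 for Δ133p53α8 against Δ133p53α1 (11.1%, below the 25.5% of all tested genes), 3 for Δ133p53α8 against Δ133p53α2 (16.7%, with 3.51%) and 0 for Δ133p53β10 against Δ133p53β5 (with 2.02%). Of all tested genes, 0.552%, 0.519%, 0.137% and 0% were called in these comparisons. In the last comparison no gene of the whole table was called by any of the 3 tools, and 370 had an unadjusted p under 0.05. Without replicate 1 of Δ133p53α1, COL12A1 and COL4A5 were called in the comparison of Δ133p53α8 with Δ133p53α1.

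Some tested collagen genes differed between the library sets in the same direction in each group. The sets were defined from the trend with gene length in these same counts. The share of all tested genes that differed in this way was not computed, so these differences do not set collagens apart. COL12A1, whose log2 change in any line was at most 1.02, read 8.53, 50.2, 19.6 and 57.8 CPM in the 4 control libraries and 65.5, 20.7, 13.7 and 10.9 CPM in those of Δ133p53α1. Within a group, its log2 CPM in the libraries where long genes read high exceeded that in the others by 1.81 on average, and by 0.85 to 2.16 in single groups. COL4A5 (1.18), COL5A2 (0.89) and COL27A1 (0.50) were also higher in that set in each of the 6 groups. COL6A2 (-1.04), COL9A3 (-0.99), COL7A1 (-0.76), COL18A1 (-0.67), COL16A1 (-0.57) and COL11A2 (-0.55) were lower in each of them. The other 8 tested genes, among them COL13A1 and COL4A6, went both ways. Tested collagen genes have a median exon length of 9.27 kilobases and a median GC content of 61.4%, against 4.27 kilobases and 47.8% for all tested genes, and the part that the library set has in any single change was not tested beyond the fits given here.

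**Figure D4:**
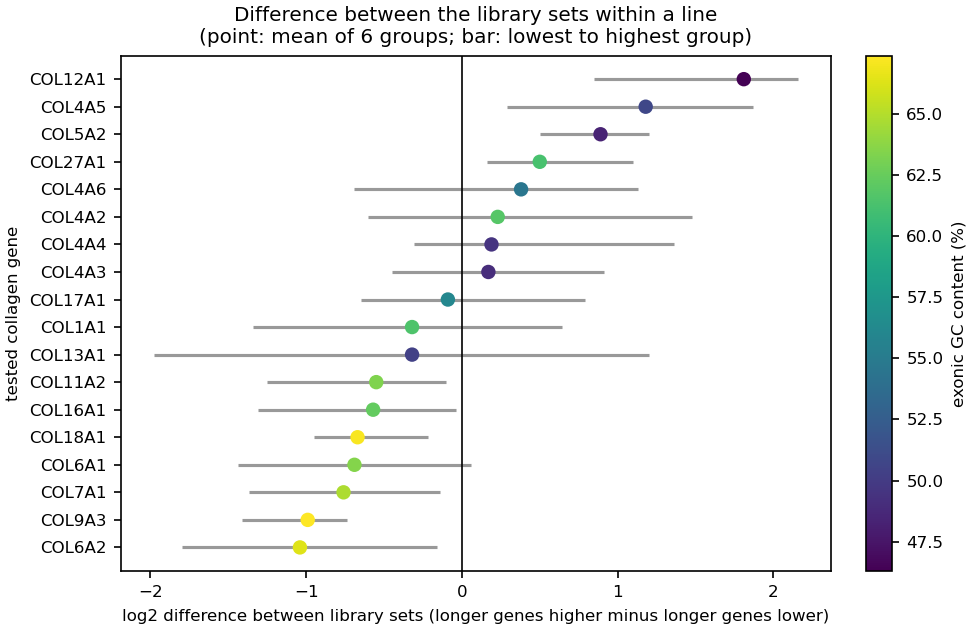
Mean log2 difference (CPM plus 0.1) between the libraries in which long genes read high and those in which they read low, within each of the 6 groups, for the 18 tested collagen genes; bars run from the lowest to the highest group and color gives the exonic GC content. COL12A1, at 46.3% GC, is at one end with 1.81 and COL6A2, at 66.4% GC, at the other with -1.04.

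Beside the collagens themselves, 47 genes that modify, secrete, cross-link or bind them were followed, of which 41 were tested. CREB3L1, the transcription factor of the endoplasmic reticulum that drives collagen secretion genes in bone, rose in each of the 5 lines and was the only one of the 47 called against the control in more than 1 line. Its control libraries read 5.00, 3.83, 8.31 and 3.85 CPM, the Δ133p53α libraries 12.2 to 29.4 CPM (median 17.3) and the Δ133p53β libraries 15.4 to 31.6 CPM (median 22.8), with no overlap with the control. The log2 fold changes were 1.83 ± 0.32, 2.03 ± 0.33 and 1.73 ± 0.32 in Δ133p53α1, Δ133p53α2 and Δ133p53α8 and 2.04 ± 0.34 and 2.25 ± 0.33 in Δ133p53β5 and Δ133p53β10 (edgeR, adjusted p = 0.000113 to 0.00205). Without replicate 2 of Δ133p53α8, that line was at 1.45 and not called. The 19 genes of chain modification and folding, such as the prolyl hydroxylase P4HA1 and the chaperone SERPINH1, held none that was called, with log2 changes of -0.63 to 0.44 for the mean Δ133p53α and -0.72 to 0.94 for the mean Δ133p53β line. Of the 41 tested genes as a whole, 1 was called in each line except Δ133p53β5, where 2 were, which is 2.44% and 4.88% of them and near the 2.53% to 4.73% of all tested genes called in these comparisons.

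MRC2, the endocytic receptor that takes up collagen for degradation, read 49.4, 23.7, 72.3 and 18.8 CPM in the control and 9.31, 12.6 and 12.1 CPM in Δ133p53β5, where it fell by 1.86 ± 0.56 on the log2 scale (edgeR, adjusted p = 0.0443). It was at -1.50 for the mean Δ133p53α line (edgeR, adjusted p = 0.0144) and -1.45 for the mean Δ133p53β line (adjusted p = 0.0253), both just short of the fold threshold. The call in Δ133p53β5 was lost under 4 of the 11 other settings (adjusted p up to 0.298) and without any of 12 single libraries, with adjusted p up to 0.174. The Δ133p53β library of unclear clone read 48.4 CPM, within the control range. LOXL4, a lysyl oxidase that cross-links collagen, was called between the isoforms: it was 2.07 ± 0.37 lower on the log2 scale in the mean Δ133p53β line than in the mean Δ133p53α line (edgeR, adjusted p = 0.00180), from 0.131 to 0.867 CPM in the Δ133p53α and 0.0416 to 0.172 CPM in the Δ133p53β libraries. These are 3 to 21 and 1 to 4 reads, and neither isoform's mean was called against the control. With 2 to 8 reads in the control, LOXL4 passed the count filter only through the Δ133p53α libraries, where it was high, and it was not tested under the filter at a mean of 1 CPM. The library of unclear clone, at 0.465 CPM, lay above all other Δ133p53β libraries and near the Δ133p53α median of 0.441 CPM, and counting it in Δ133p53β5 or Δ133p53β10 gave -1.65 (edgeR, adjusted p = 0.0105) or -1.71 (adjusted p = 0.0118).

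**Figure D5:**
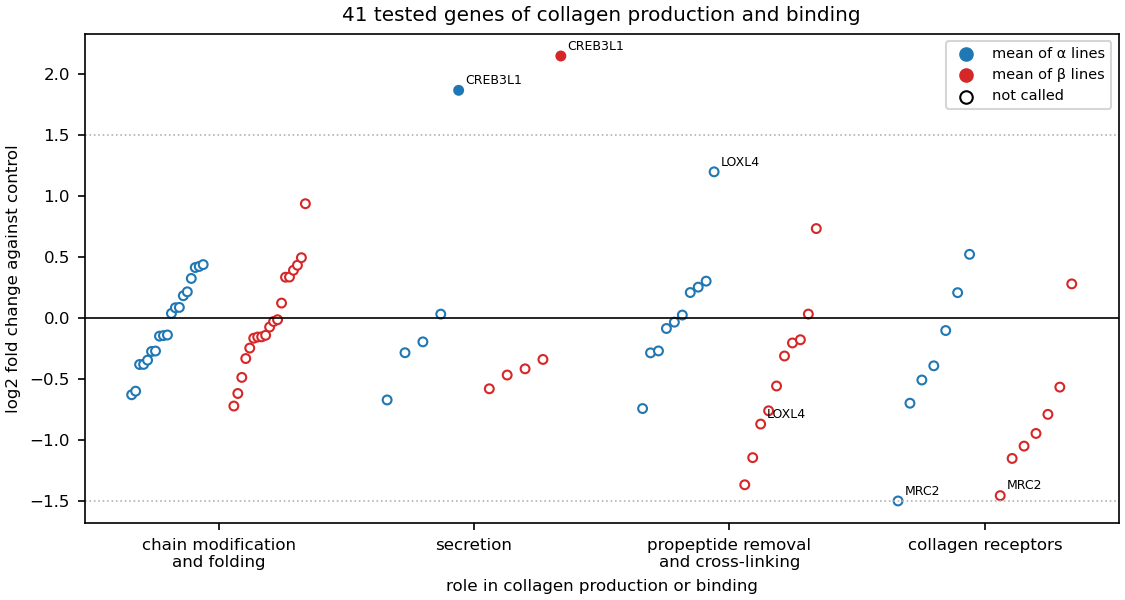
log2 fold change against the control of the 41 tested genes of collagen production and binding, by role, for the mean of the Δ133p53α and of the Δ133p53β lines. Filled points are called genes, and dotted lines mark a log2 fold change of 1.5 in either direction. CREB3L1 is called for both isoforms, LOXL4 lies at 1.20 and -0.87, and MRC2 lies at -1.50 and -1.45.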

How the data were processed

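RNA of 24 libraries was sequenced, and the authors deposited 1 table of raw read counts per gene, made by trimming with Cutadapt, alignment with HISAT2 to GRCh38 and counting with featureCounts. The strand setting and the treatment of reads with several matches are not given in the sources used here. The library totals were 21531599 to 25381731 counts, and the 1 unnamed row held 0 reads. No pair of the 33 pairs of libraries within a line agreed within sampling noise (chi-square per degree of freedom at least 15.8).

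From these counts, edgeR 4.0.16 (R 4.3.3) fitted 23 libraries as 6 groups with TMM factors, its expression filter (18295 genes) and the quasi-likelihood test, with 17 residual degrees of freedom. Genes were called at a Benjamini-Hochberg adjusted p under 0.05 over all tested genes and a log2 change of at least 1.5 in size. The fit was tested on simulated data. The alternatives were DESeq2 1.42.0, limma-voom (limma 3.58.1), RLE factors, no filter, a mean of 1 CPM, a fold of 1.5, the replicate number or the library set as a term, removal of the trend with gene length and GC content (mgcv 1.9.3), the library of unclear clone in either line, and each library left out in turn. Exon lengths came from GENCODE 44, and promoters from RefSeq (GRCh38.p14).

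Values were printed for collagen genes called in at least 1 comparison, the 6 with the highest level per kilobase, COL13A1 and the pairs of type IV genes, and for pathway genes that were called. COL1A1, COL5A2, COL7A1, COL9A3, COL11A2 and COL26A1, and the uncalled pathway genes DDR1, ITGA10, LOXL2 and TLL2, were added after their values were seen. The members and lists were chosen with earlier results of these data known. A check of the labels by the overexpressed gene is not reported here.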

Additional observations from a re-analysis of the deposited data

Results flagged for a closer look

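In 4 of 65 groups of 4 libraries examined, 1 library stood far from the other 3, and chance gives this in about 1 of 20 groups. COL16A1 read 9.16 CPM in 1 library of Δ133p53β10 and 3.91 to 4.51 CPM in the others, and 2 of those 3 belong, as it does, to the set in which long genes read low. COL4A6 read 1.77 CPM in 1 library of Δ133p53α8 and 2.42 to 2.48 CPM in the others. In Δ133p53α8, COL6A1 read 64.0 CPM in 1 library against 21.3 to 25.2 CPM, and COL6A2 read 145 CPM in the same library against 36.5 to 46.6 CPM. That library is the only one of Δ133p53α8 in which long genes read low, and over the 6 groups the libraries where long genes read high were lower by 0.69 (COL6A1) and 1.04 (COL6A2) on the log2 scale on average. These averages include Δ133p53α8 and so this same library, and the part of the library set in the flagged values was not tested.

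The mean Δ133p53β line differed from the mean Δ133p53α line for 6 of 59 tested collagen and pathway genes (edgeR, log2 difference), a comparison of 2 clones with 3. Of all tested genes, 4.76% passed it at an adjusted p under 0.05. Its p-values rest on the spread between libraries within clones, so isoform and clone cannot be told apart. The differences were -1.49 for COL4A6 (adjusted p = 0.00387), -2.07 for LOXL4 (0.00180), -0.66 for the collagen receptor DDR1 (0.00901), -1.36 for the integrin ITGA10 (0.0222), -0.51 for LOXL2 (0.0222) and -1.06 for the protease TLL2 (0.0234). COL4A6 and LOXL4 passed the count filter through libraries where they were high, LOXL4 only through the Δ133p53α libraries. LOXL4 was not tested under the filter at a mean of 1 CPM, and its other fits share this selection. Within that limit, for COL4A6 and LOXL4 the adjusted p stayed under 0.05 in each fit that tested them. It did not for ITGA10 with a replicate block (0.051) and without any 1 of the 3 Δ133p53β5 libraries (up to 0.0682), or for DDR1 without Δ133p53β5 replicate 3 (0.051). It also did not for LOXL2 and TLL2 with no count filter or with the length and GC trend removed (up to 0.174 and 0.0812), without Δ133p53β5 replicate 1 or 3 or, for TLL2, without Δ133p53β10 replicate 1 (up to 0.0826 and 0.0932).

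In the Δ133p53β library of unclear clone, which entered no comparison, COL16A1 read 10.3 CPM (control 0.435 to 1.84), COL4A5 2.58 CPM (control 0.465 to 2.03) and COL4A6 0.775 CPM (control 0.0865 to 0.233). In the same library COL6A1 read 55.3 CPM (control 40.2 to 94.0) and MRC2 48.4 CPM (control 18.8 to 72.3), both within the control range, and LOXL4 read 0.465 CPM (control 0.0775 to 0.307).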

How the results depend on the processing

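Over 11 other settings and 23 fits that each left out 1 library, the 35 collagen fold changes gave 1190 values. Of these, 1137 kept their direction and side of the threshold, 19 were no longer called, 34 became called and 0 reversed. The setting with a fold threshold of 1.5 reuses the main fit, so it can add calls but cannot lose one or reverse a direction. The number of collagen genes called between the isoform means was 1 (COL4A6) in place of 0 with limma-voom, with a filter at a mean of 1 CPM and with a fold threshold of 1.5, and 0 to 1 without single libraries. COL4A6 was at -1.49 in the main fit, -1.52 with limma-voom and -1.51 with the filter at a mean of 1 CPM, so these values lay close to the log2 threshold. The fold threshold of 1.5 was applied to the main fit, and its call follows from the lower limit. For Δ133p53α8 against Δ133p53α1 the number of collagen genes called was 0 to 2 without single libraries. Replicate numbers did not pair the libraries: the correlation of same-numbered libraries ran from -0.88 to 0.889 (median 0.00715), and 6 of 23 correlated best with their own number. With a replicate block, 3 collagen genes were called in Δ133p53α1, Δ133p53α2 and Δ133p53β10 and 4 in Δ133p53α8 and Δ133p53β5, and COL4A5 in Δ133p53β10 was at 1.93 (adjusted p = 0.0669, edgeR) and for the mean Δ133p53α line at 1.81 (adjusted p = 0.0546), neither called; the MRC2 call in Δ133p53β5 was also lost (-1.88, adjusted p = 0.0771). Over the 11 settings, the number of all genes called ran from 269 to 870 for Δ133p53α1 (472 as reported), 294 to 945 for Δ133p53α2 (514), 274 to 813 for Δ133p53α8 (463), 486 to 1449 for Δ133p53β5 (782) and 523 to 1731 for Δ133p53β10 (866), and for the isoform comparison from 125 to 722 (254). Genes with few reads, such as COL4A6 in the control, limit the precision of folds.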

Other observations

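In the library whose clone is given differently by its label and the count table, 4 of the 18 tested collagen genes lay within the range of Δ133p53β5, 7 within that of Δ133p53β10 and 11 outside both. The ranges rest on 3 and 4 libraries, and the share of all tested genes outside them was not computed. These counts therefore neither set collagens apart nor assign the library to a clone. In this library COL13A1 read 1.65 CPM, just below the lowest control library at 1.69 CPM, and COL18A1 read 134 CPM, above the highest control library at 98.9 CPM.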
